A study of Saccharomyces cerevisiae with 15 samples.

Results

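The proteasome set held 35 genes: the 14 subunits of the 20S core particle, 18 subunits of the 19S regulatory particle, the transcription factor RPN4, the core maturation factor UMP1 and the adaptor ECM29. The genes were chosen by their symbols from a list, with earlier results of these data known. All 35 had a probe set among the 5449 Saccharomyces cerevisiae genes measured, each read by a single probe set. The question was how RNA levels of this complex and of its activator differed between cells without Gcn5p, the histone acetyltransferase of the SAGA complex, and cells in which a catalytically inactive Gcn5p competes with the native protein.

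The proteasome degrades proteins tagged with ubiquitin. Its 20S core is a barrel of alpha and beta rings that holds the proteolytic sites inside, and its 19S particle, made of a base with a ring of ATPases and a lid, binds ubiquitin chains, removes them and feeds the unfolded protein into the core. In yeast, Rpn4p activates most proteasome genes through a shared promoter element and is itself a short-lived substrate of the proteasome, so that a shortage of active proteasome raises the factor that makes more of it.

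RNA came from 5 strains of S288C, all MATα haploids, with 3 biological replicates and so 3 Affymetrix arrays each. The wild-type strain and the gcn5 null strain, in which a hygromycin B resistance gene replaces GCN5, both carried a control plasmid without the mutant allele. The other strains were wild-type cells that kept their native GCN5 and also carried gcn5-F221A, a catalytically inactive dominant allele, on a centromeric plasmid behind mutant TEF promoters of strength 0.32, 0.68 or 0.95 relative to the unmutated TEF promoter. All strains grew in minimal medium with 20 g/L glucose and G418 at 200 µg/mL, from an OD of 0.0045 to between 0.4 and 0.5. Each genotype is 1 strain, so a difference that arose when that strain was built cannot be told apart from an effect of its genotype.

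The GCN5 probe set, which reads the native and the mutant RNA together, gave log2 signals between 8.86 and 8.97 in wild-type, between 5.73 and 5.83 in gcn5 null and between 13.08 and 13.20 at strength 0.95. Of 4 markers of alpha cells, SAG1, STE3, MF(ALPHA)1 and MF(ALPHA)2, all 4 fell in gcn5 null, with log2 differences from -4.91 to -0.785. Of 5 markers of a cells 1, BAR1, rose (18.4% of all genes rose and 22.6% fell). The correlation of replicate arrays ranged from 0.994 to 0.998 for wild-type and from 0.996 to 0.998 for gcn5 null, but its lowest value was 0.981 at strength 0.32 and 0.977 at 0.68. Arrays also differed in the signal that probe sets at the 5' end of control genes gave relative to those at the 3' end. This log2 difference depends on RNA quality and on how evenly the transcripts were copied and labelled, which it cannot tell apart. It was -2.67 ± 0.30 in wild-type and -1.94 ± 0.32 in gcn5 null. With the mutant allele it was -2.76 ± 0.51 at strength 0.32, then -2.03 ± 0.58 at 0.68 and -2.24 ± 0.46 at 0.95 (SD, n = 3 each). Values from a fit with this signal as a covariate, an alternative chosen after seeing the data, stand beside the results that it moved. In that fit 3 of the 5 markers of a cells rose in gcn5 null, MFA2, BAR1 and AGA2, and all 4 of alpha cells fell again (20.6% of all genes rose and 25.5% fell).

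All members gave a clear signal. In wild-type the mean log2 signal ran from 8.73 for ECM29 to 13.07 for PRE1, and every mean lay well above the background that Schizosaccharomyces pombe probe sets gave on the same arrays (95th percentile 5.20). Signals of different probe sets do not rank RNA levels between genes, since probes bind with different strength. Since the authors scaled all arrays to 1 distribution of signals, values are shares of the RNA, and a change in RNA per cell cannot be told apart from a change in the number of cells that hold it.

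Loss of GCN5 was accompanied by higher proteasome RNA. In gcn5 null, 17 of 35 members rose against wild-type and 0 fell (limma over all genes, adjusted p under 0.05), and at an unadjusted p under 0.05 the counts were 25 and 0. Over all 5449 genes, 18.4% rose and 22.6% fell at the adjusted threshold in the same comparison. The shares of all genes at the unadjusted threshold were not counted. The median log2 difference over the 35 members was 0.43, or 0.23 with the covariate, against -0.01 in both fits over all genes. A value above 0 was seen in 34 of 35 members and in 48.9% of all genes. Members are not independent observations, since their signals moved together between arrays. With strain means removed, the median Pearson r was 0.53 over 595 pairs of members, and 81.3% of pairs were above 0. The signals of the 3 null arrays all lay above the 3 wild-type arrays for 33 of 35 members, as they did for 29.5% of all genes, and below them for 0 members (33.4% of all genes). The 2 exceptions were RPN3, of the lid, and UMP1, both named for this reason after their values were seen. The steps were small, since the highest log2 difference of any member was 0.96, below a doubling. The count was 10 without wild-type replicate 1, 10 and 8 without null replicates 1 and 2, and 26 without replicate 3 of strength 0.32, which entered through the shared estimate of the spread. In the same order, 14.3%, 12.9%, 12.9% and 20.5% of all genes rose in these fits.

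**Figure D1:**
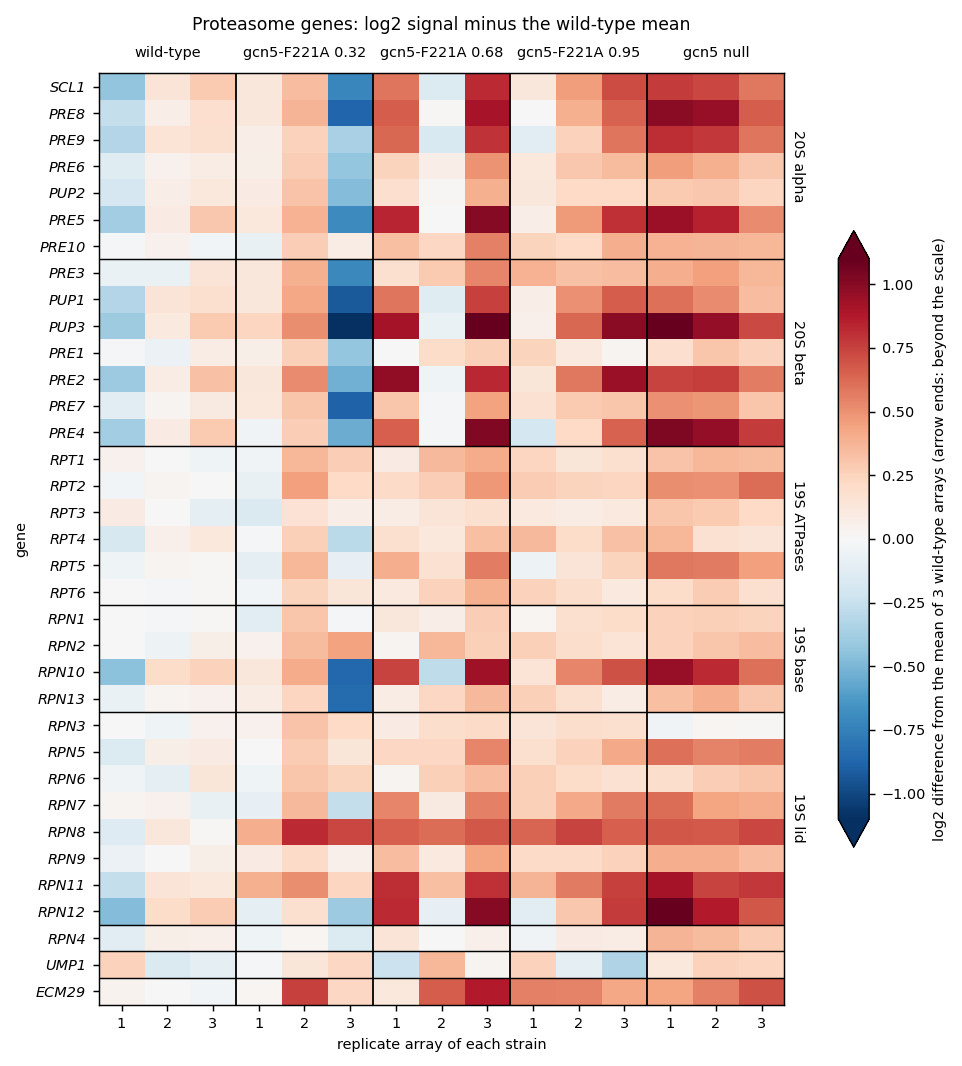
Log2 signal of each of the 35 proteasome genes (rows, in groups by role) on each of the 15 arrays (columns, 3 replicates per strain), as the difference from the mean of the wild-type arrays. Red is higher and blue is lower than that mean, with values beyond the scale drawn in its end colours. The null columns are red in nearly all rows, RPN8 is red in all strains other than wild-type, and replicate 3 at strength 0.32 is blue in most of the 20S rows.

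Of the 14 core subunits, 4 rose in gcn5 null, where 18.4% of all genes did. They were PRE8, PRE9 and PRE10 of the alpha ring (3 of 7) and PRE4 of the beta ring (1 of 7). PRE4, a beta ring subunit without catalytic activity of its own (YFR050C, chromosome VI from 249066 to 249866 of assembly R64), had log2 signals of 11.43, 11.90 and 12.10 in wild-type and 12.83, 12.78 and 12.58 in gcn5 null. The null arrays lay above all wild-type arrays, and the wild-type arrays were the more scattered. The log2 difference was 0.92 (SE 0.29, adjusted p = 0.0209), or 1.89-fold. PRE8, an alpha ring subunit, read 11.64, 11.97 and 12.09 in wild-type and 12.89, 12.86 and 12.57 in gcn5 null, a difference of 0.87 (SE 0.30, adjusted p = 0.0336). Again wild-type replicate 1 was lowest and the strains did not overlap. With the covariate neither passed, at 0.32 for PRE4 (adjusted p = 0.0505) and 0.24 for PRE8 (adjusted p = 0.164). PRE9 went from 0.73 to 0.20 with the covariate and did not pass either (adjusted p = 0.138). The other 10 core subunits did not pass the test although all 14 had differences above 0, with a median of 0.59. Among them was PUP3, of the beta ring, whose 0.96 had the highest value of all members but an SE of 0.45 (adjusted p = 0.105), and the subunits that carry the proteolytic sites, PRE3 at 0.40, PUP1 at 0.49 and PRE2 at 0.69. The calls of PRE4, PRE8 and RPN12 were each lost without wild-type replicate 1, null replicate 1 or null replicate 2, and that of PRE8 also without wild-type replicate 2 (adjusted p up to 0.0926, 0.118 and 0.140).

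Of the 18 subunits of the 19S particle, 11 rose in gcn5 null (18.4% of all genes did), with a median log2 difference of 0.36 over the 18. In the base these were 4 of the 6 ATPases that unfold substrates (RPT1, RPT2, RPT3 and RPT5, at 0.34, 0.54, 0.27 and 0.53) and 1 of the 4 other base subunits, the scaffold protein RPN2 at 0.30. The ubiquitin receptors RPN1, RPN10 and RPN13 did not pass, at 0.25, 0.79 and 0.34. In the lid 6 of 8 rose. RPN12, a lid subunit (YFR052W, chromosome VI from 252505 to 253329), had the largest difference of the regulatory subunits called, 0.88 (SE 0.30, adjusted p = 0.0313), with signals of 10.69, 11.37 and 11.45 in wild-type and 12.27, 12.04 and 11.85 in gcn5 null. The strains did not overlap, and wild-type replicate 1 lay well below the other two. With the covariate the difference was 0.25 and did not pass (adjusted p = 0.14). RPN11, the metalloprotease that cuts ubiquitin chains from the substrate, rose by 0.81 (SE 0.15, adjusted p = 0.00101), and RPN8, its partner in the lid, by 0.70 (SE 0.10, adjusted p = 0.00019). RPN5, RPN7 and RPN9 rose by 0.57, 0.49 and 0.38. With the covariate these were 0.45, 0.23 and 0.26, and RPN7 did not pass (adjusted p = 0.162). RPN3 had the same mean in both strains, 11.40 ± 0.05 in wild-type and 11.40 ± 0.03 in gcn5 null (SD, n = 3 each).

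RPN4 (YDL020C, chromosome IV from 415113 to 416708) rose in gcn5 null and in no other strain. Its log2 signals were 11.01, 11.20 and 11.18 in wild-type and 11.50, 11.48 and 11.41 in gcn5 null. At strength 0.32 they were 11.08, 11.15 and 10.98, at 0.68 they were 11.27, 11.13 and 11.18, and at 0.95 they were 11.09, 11.22 and 11.21. The 3 null arrays were the highest of all 15, and the strains with gcn5-F221A overlapped wild-type. The null difference was 0.33 (SE 0.08, adjusted p = 0.00433), or 1.26-fold, while the strengths gave -0.06, 0.06 and 0.04 (SE 0.08 each, adjusted p = 0.834, 0.62 and 0.792), the last 2 of which turned to -0.03 and -0.02 with the covariate. The direct comparison of strength 0.95 with gcn5 null was also called, at -0.29 (95% interval -0.46 to -0.12, adjusted p = 0.0113), and both calls held whichever array was left out (adjusted p between 0.00315 and 0.0231 for the null strain and between 0.00822 and 0.0493 for 0.95 against null).

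PUP2, an alpha ring subunit (YGR253C, chromosome VII from 998358 to 999140), is the neighbour of the deleted gene, with 169 bases between it and GCN5 (YGR252W, from 996869 to 998188). The letters W and C of the systematic names place the genes on opposite strands, so that their 3' ends face each other. PUP2 gave 12.62, 12.88 and 12.92 in wild-type, 12.90, 13.12 and 12.33 at strength 0.32, 12.99, 12.82 and 13.20 at 0.68, 12.93, 13.02 and 13.02 at 0.95, and 13.09, 13.10 and 13.04 in gcn5 null. The null arrays lay above the wild-type arrays, yet wild-type spread over a wider range than the gap between the strains. The null difference was 0.27 (SE 0.16, 95% interval -0.08 to 0.63, adjusted p = 0.206), a value below the median of the 14 core subunits, and PUP2 was called in no comparison of this fit. With only the wild-type and null arrays in the fit the same difference passed (adjusted p = 0.0334). Of the genes on the outer sides, NOP19, a ribosome biogenesis factor before GCN5, differed by 0.08 (adjusted p = 0.599), and ENO1, an enolase after PUP2, rose by 0.88 (SE 0.14, adjusted p = 0.000314).

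**Figure D2:**
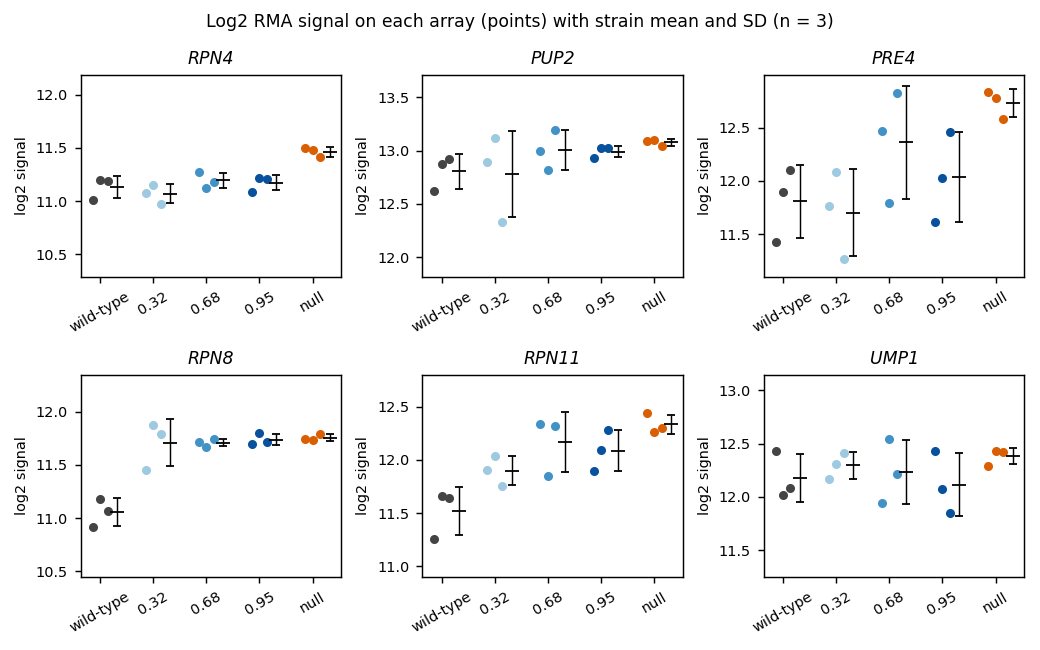
Log2 signal of RPN4, PUP2, PRE4, RPN8, RPN11 and UMP1 on each array (points), with the mean and SD of the 3 replicates beside them, for wild-type, the graded strains by promoter strength, and gcn5 null. RPN4 stands above the other strains in gcn5 null only, RPN8 is above wild-type in all other strains, and the replicates of PRE4 at 0.68 and 0.95 spread over more than its wild-type replicates do.

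Much of the scatter among replicates was shared by the core genes. With strain means removed, the signal of a core gene followed the 5' minus 3' signal of the array with a median Pearson r of 0.93 over the 15 arrays (0.26 to 0.97 over the 14 genes), as a description of arrays that share 5 strain means and 1 normalization. The lid genes had a median of 0.66 (-0.25 to 0.94). The 6 ATPases had a median of -0.08 (-0.32 to 0.72), with RPT4 at 0.68 and RPT5 at 0.72. RPN4 was at 0.79 and UMP1 at -0.83, and the mean of the 34 members other than RPN4 at 0.86. Over all 5449 genes the median was -0.08, with the 5th and 95th percentiles at -0.87 and 0.91. The mean of 12 stress genes such as HSP12 and CTT1, another quantity that differed between arrays, was 10.81 ± 0.25 in wild-type and 11.39 ± 0.04 in gcn5 null. At strength 0.32 it was 10.85 ± 0.66, at 0.68 it was 11.61 ± 0.61 and at 0.95 it was 11.89 ± 0.16 (SD, n = 3 each), and the median r of the members with it was 0.54. Its part in the results was not tested.

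**Figure D3:**
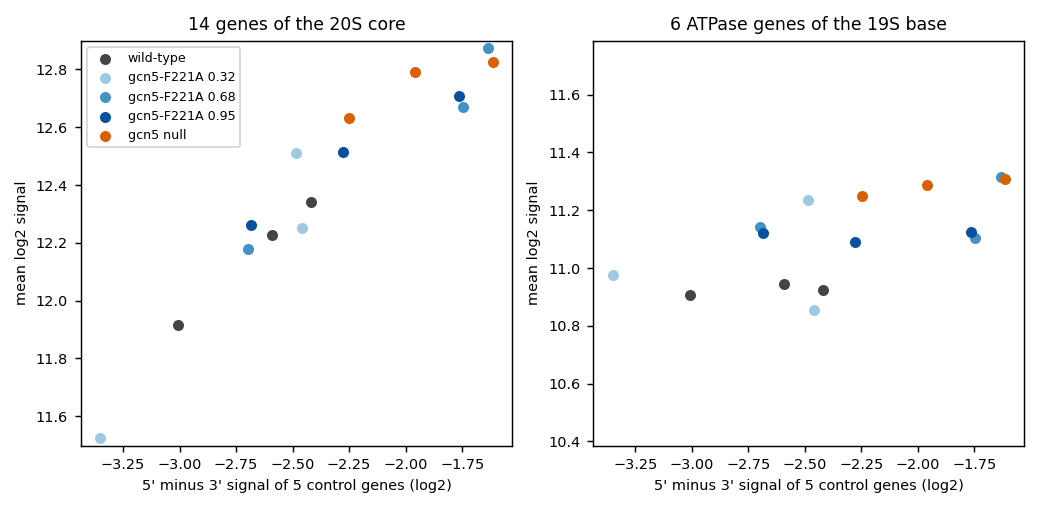
Mean log2 signal of the 14 core genes (left) and of the 6 ATPase genes of the base (right) against the log2 5' minus 3' signal of 5 control genes, with a point per array coloured by strain. The core genes climb along the axis within and between strains. The mean of the ATPases lies higher in gcn5 null than in wild-type, with no such course shared by the strains.

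In the fit with the 5' minus 3' signal as a covariate, 13 of 35 members rose in gcn5 null and 0 fell, where 20.6% of all genes rose. Of the core 1 of 14 passed (PRE10) and the median went from 0.59 to 0.10, whereas 9 of 18 regulatory subunits passed and their median went from 0.36 to 0.28. The 4 ATPases called before were called again, and the ATPase median was 0.32 against 0.31. RPT4, called in neither fit, went from 0.23 to 0.04 and RPT5 from 0.53 to 0.33, while RPT1, RPT2, RPT3 and RPT6 did not go down. PUP2 was left at 0.00 (adjusted p = 0.996). RPN8 stayed at 0.70, RPN11 went to 0.52 and RPN4 to 0.23 (adjusted p = 0.0162). UMP1, which was lower on arrays with a high 5' signal, went from 0.20 (adjusted p = 0.364) to 0.51 (adjusted p = 0.00486). Because the covariate itself differed between wild-type and gcn5 null, this fit shares the difference out between the strain and the array, and which of them the core genes followed cannot be told apart.

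**Figure D4:**
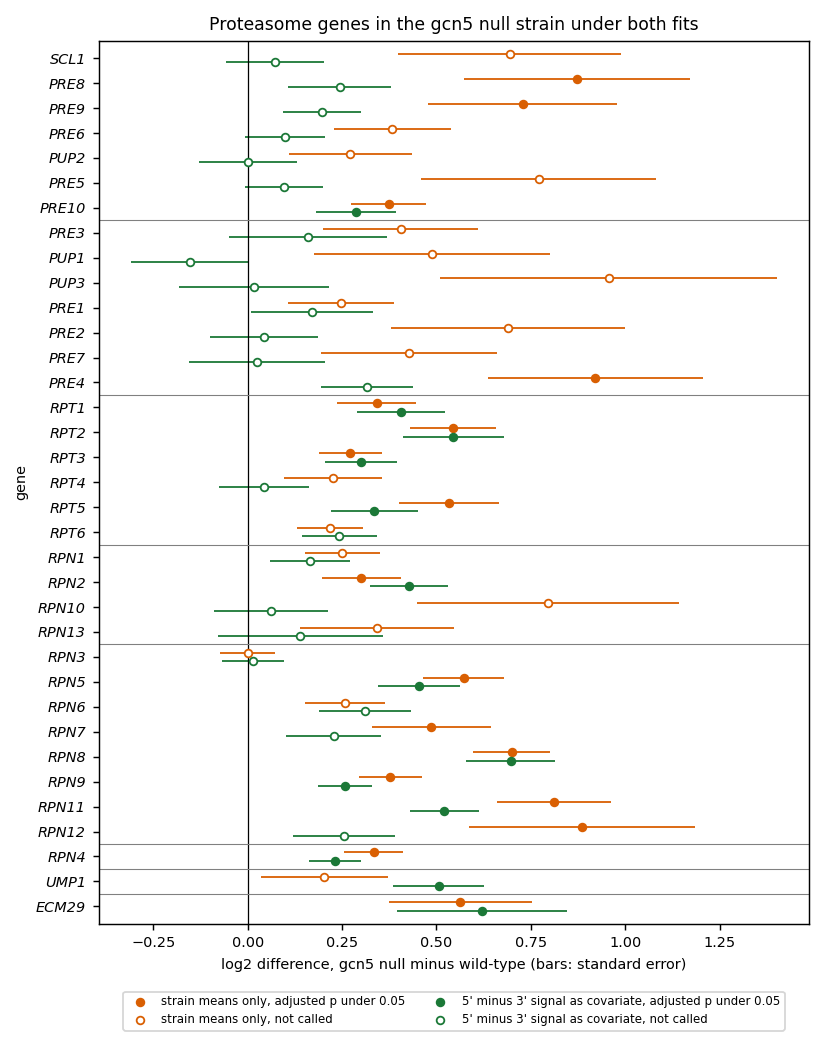
Log2 difference between gcn5 null and wild-type for each of the 35 genes, with the SE as a bar, in the fit with strain means only (orange) and with the 5' minus 3' signal as a covariate (green); filled points have an adjusted p under 0.05. Most core genes move towards 0 with the covariate, while RPT1, RPT2, RPT3, RPN8 and ECM29 stay close to their first value.

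Fewer members were called in the strains with graded gcn5-F221A. At strength 0.32, 1 of 35 members rose, RPN8, and 0 fell (1.43% of all genes rose and 0.165% fell), and the median difference was 0.00. At 0.68, 4 rose, PRE10, RPN8, RPN9 and RPN11, and 0 fell (5.34% of all genes rose and 7.05% fell). The median there was 0.33, with all 35 members above 0 (49.1% of all genes). At 0.95, 2 rose, RPN8 and RPN11, and 0 fell (7.25% of all genes rose and 5.23% fell), with a median of 0.25. The arrays of the strain lay above all wild-type arrays for 3 of 35 members at 0.32 (9.76% of all genes), 15 at 0.68 (12.1%) and 20 at 0.95 (20.5%), and below all of them for 0 of 35 members at each strength (7.21%, 15.9% and 18.3% of all genes). The linear slope over promoter strength, with wild-type at 0, was called for 6 members, all upward: PRE10, RPN5, RPN7, RPN8, RPN9 and RPN11 (8.39% of all genes had such a slope and 7.27% a downward one). At an unadjusted p under 0.05, 4, 12 and 10 members were higher at the 3 strengths and 13 had an upward slope, with 0 lower or downward. The shares of all genes at this unadjusted threshold were not counted. These comparisons share the wild-type arrays. When wild-type replicate 1, 2 or 3 was left out, 1, 2 and 2 members rose at 0.68, and the same happened to the slope, with 1, 2 and 2. In those fits 0.716%, 2.09% and 2.31% of all genes rose at 0.68, and 4.07%, 4.77% and 5.38% had an upward slope. At 0.68 there were also 7 when 0.32 replicate 2 was dropped (5.4% of all genes), 10 when 0.68 replicate 1 was (12.8%) and 1 when 0.68 replicate 3 was (0.789%). At 0.95 there was 1 when wild-type replicate 1 (4.15%) or 0.95 replicate 2 (4.0%) or 3 (4.11%) was dropped. The slope gave 3 without 0.32 replicate 1 (7.36% of all genes), 0.68 replicate 3 (7.19%), 0.95 replicate 2 (5.41%), null replicate 2 (6.68%) or null replicate 3 (7.23%). It gave 2 without 0.95 replicate 3 (5.78%). With the 5' minus 3' covariate 2 members rose at 0.32 (RPN8 and RPN11, where 2.81% of all genes did), 4 at 0.68 (RPT1, RPN2, RPN8 and RPN11, against 8.61%) and 2 at 0.95 (RPN8 and RPN11, against 11.6%). The member medians with the covariate were 0.03, 0.09 and 0.11 at the 3 strengths, and at 0.68 26 of 35 members were above 0, with a median of -0.01 over the 14 core genes.

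RPN8 (YOR261C, chromosome XV from 815915 to 816931) was the member called against wild-type in every strain. It read 10.92, 11.18 and 11.07 in wild-type, 11.45, 11.87 and 11.79 at 0.32, 11.72, 11.67 and 11.74 at 0.68, 11.70, 11.80 and 11.71 at 0.95, and 11.74, 11.73 and 11.79 in gcn5 null. None of the 12 arrays of the other strains reached down to the wild-type range. The differences from wild-type were 0.65 at 0.32 (SE 0.10, adjusted p = 0.00564), 0.65 at 0.68 (adjusted p = 0.0048), 0.68 at 0.95 (adjusted p = 0.00108) and 0.70 in gcn5 null, and 0.95 differed from 0.32 by 0.03 (95% interval -0.19 to 0.25) and from gcn5 null by -0.02 (95% interval -0.24 to 0.20). The step was thus present at the weakest promoter, and the called slope of 0.64 per unit of strength came with no called difference between strengths. With a covariate for the 5' minus 3' signal the values at 0.32 and 0.95 were 0.65 and 0.68, and the calls of all strengths held whichever array was left out. With only the compared arrays in the fit, 0.32 and 0.68 did not pass (adjusted p = 0.153 and 0.095).

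RPN11 gave 11.26, 11.66 and 11.64 in wild-type, 11.91, 12.03 and 11.76 at 0.32, 12.33, 11.85 and 12.32 at 0.68, 11.89, 12.09 and 12.28 at 0.95, and 12.44, 12.26 and 12.30 in gcn5 null. All arrays of the other strains were above the wild-type ones, although the strengths overlapped each other. The difference was 0.38 at 0.32 (adjusted p = 0.331), 0.65 at 0.68 (SE 0.15, adjusted p = 0.0202) and 0.57 at 0.95 (SE 0.15, adjusted p = 0.0278). The call at 0.68 was lost without wild-type replicate 1 or 0.68 replicate 3, and that at 0.95 without wild-type replicate 1 or 0.95 replicates 2 or 3.

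PRE10, an alpha ring subunit, was tight in wild-type, at 11.47, 11.54 and 11.46, and read 11.41, 11.76 and 11.58 at 0.32, 11.82, 11.72 and 12.04 at 0.68, 11.74, 11.71 and 11.89 at 0.95 and 11.87, 11.86 and 11.86 in gcn5 null. Arrays of 0.68, 0.95 and gcn5 null were all above wild-type, while those of 0.32 overlapped it. The difference was 0.37 both at 0.68 (SE 0.10, adjusted p = 0.032) and in gcn5 null (SE 0.10, adjusted p = 0.00928), and 0.29 at 0.95 (adjusted p = 0.0821). The call of PRE10 at 0.68 was lost without wild-type replicate 1, 2 or 3 or 0.68 replicate 3 (adjusted p up to 0.156). With the covariate it was lost too, at 0.29 (adjusted p = 0.0582). RPN7, a lid subunit, read 10.35, 10.37 and 10.24 in wild-type, 10.23, 10.68 and 10.05 at 0.32, 10.86, 10.42 and 10.88 at 0.68, 10.58, 10.73 and 10.89 at 0.95 and 10.93, 10.75 and 10.73 in gcn5 null. Its 0.32 replicates lay on both sides of wild-type and its replicates at the higher strengths above it, and the slope was 0.52 per unit of strength (SE 0.15, adjusted p = 0.0383). That call was lost without any 1 wild-type replicate, 0.32 replicate 1, 0.68 replicate 3, 0.95 replicates 2 or 3 or null replicates 2 or 3 (adjusted p up to 0.0925). With the covariate the slopes of RPN8 and RPN11 were the 2 called among members, where 10.6% of all genes had an upward call, and that of RPN7 was 0.29 (adjusted p = 0.105).

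Strength 0.95 and gcn5 null differed in 2 members, both lower at 0.95, with 0 higher (5 and 1 at an unadjusted p under 0.05). At the adjusted threshold 13.6% of all genes were lower and 19.5% higher, and the shares at the unadjusted one were not counted. The 2 members called were RPN4, given above, and RPT5, one of the ATPases that dock into the core. RPT5 read 10.03, 10.24 and 10.34 at 0.95, 10.68, 10.66 and 10.54 in gcn5 null and 10.05, 10.12 and 10.11 in wild-type, and its arrays at 0.95 reached down into the wild-type range but not up to the null range. At 0.32 it read 9.99, 10.46 and 10.00, and at 0.68 10.49, 10.26 and 10.66. Those replicates were the more scattered. RPT5 at 0.95 was -0.42 from gcn5 null (SE 0.13, 95% interval -0.71 to -0.14, adjusted p = 0.025) and 0.11 from wild-type (95% interval -0.17 to 0.39), a value that changed sign with the covariate. Its call against gcn5 null was lost without 0.95 replicates 1 or 2 or null replicates 1 or 2. The median over the 35 members was -0.16, against 0.03 over all genes. The count of lower members was 4 without 0.32 replicate 2 (13.4% of all genes) or 0.95 replicate 3 (11.8%). It was 1 without 0.95 replicates 1 (11.1%) or 2 (10.6%) or null replicates 1 (10.2%) or 2 (9.76%). With the covariate it was 6 (PRE9, PRE4, RPT5, RPN12, RPN4 and UMP1), where 19.4% of all genes were lower, with 0 members higher (24.9% of all genes).

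Between strengths 0.95 and 0.32, 0 members passed (limma, with 0.661% of all genes higher and 1.25% lower at 0.95). At an unadjusted p under 0.05, 2 were higher, and the share of all genes at that threshold was not counted. The members with the smallest p were RPN7, at 0.42 (adjusted p = 0.203), the ATPase RPT4, at 0.31 (adjusted p = 0.247), and PRE3, at 0.41 (adjusted p = 0.33). RPT4 read 10.62, 10.89 and 10.33 at 0.32 and 10.98, 10.83 and 10.95 at 0.95. PRE3, which carries the caspase-like site, read 12.97, 13.24 and 12.14 at 0.32 and 13.23, 13.17 and 13.19 at 0.95. In both, replicate 3 at 0.32 was the low array and replicate 2 lay above at least 1 of the 0.95 arrays. When replicate 2 at 0.32 was left out 1 member, RPN7, passed (1.71% of all genes were higher).

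Outside the particle itself, UMP1 and ECM29 took different courses. UMP1, which matures the core and is degraded as its first substrate, gave 12.43, 12.02 and 12.08 in wild-type and 12.29, 12.43 and 12.42 in gcn5 null, with overlap. With strain means only it was called in no comparison, and its differences at the strengths were 0.12, 0.06 and -0.06. With the covariate it rose in gcn5 null, as given above, was lower at 0.95 than in gcn5 null by -0.39 (adjusted p = 0.0098), and its difference at 0.95 from wild-type turned to 0.115. ECM29, which tethers the core to the regulatory particle and was the weakest signal of the set, rose in gcn5 null from 8.77, 8.73 and 8.70 to 9.17, 9.28 and 9.43 (0.56, SE 0.19, adjusted p = 0.0306). At the strengths it did not pass, with 0.33, 0.55 and 0.51 (adjusted p = 0.559, 0.0734 and 0.103).

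Genes that work with the proteasome were looked at through 6 further lists, whose counts in gcn5 null stand beside the 18.4% of all genes that rose and 22.6% that fell (20.6% and 25.5% with the covariate). Lists of this length near those shares say nothing particular about their genes. Of 9 assembly chaperones, 2 rose in gcn5 null, NAS6 of the regulatory particle at 0.94 (SE 0.23, adjusted p = 0.00647; 0.51 with the covariate, adjusted p = 0.0235) and PBA1 of the core at 0.38, and neither was called at any strength. Of the 3 genes for proteasome-bound ubiquitin enzymes and a small lid subunit, the ligase HUL5 rose by 0.72 and the deubiquitinase UBP6 by 0.44 in gcn5 null. Both were lower at 0.95 than in gcn5 null, by -0.81 and -0.28.

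Of 12 genes for ubiquitin and its E1 and E2 enzymes, 4 rose in gcn5 null and 0 fell. UBI4, the polyubiquitin gene used under stress, rose by 0.80, the E2 enzyme RAD6 by 0.54 and the E1 enzyme UBA1 by 0.45. With the covariate 2 of 12 rose, UBI4 and the E2 enzyme UBC7, while RAD6 was at 0.18 (adjusted p = 0.174), UBA1 at 0.31 (adjusted p = 0.0651) and UBC1, the other called before, at 0.26 (adjusted p = 0.12). UBI4 rose also at 0.68 (0.69, adjusted p = 0.0111) and at 0.95 (0.73, adjusted p = 0.00364), together with the stress genes whose levels are given above. Of 7 genes for Cdc48 and the shuttle receptors that bring substrates to the proteasome, 4 rose in gcn5 null, among them DDI1 at 0.64, NPL4 at 0.50 and RAD23 at 0.41 (0.24 with the covariate, where 5 of 7 rose), and DDI1 and NPL4 rose at 0.68 as well.

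Of 10 genes for ubiquitin ligases and the turnover of Rpn4p, 3 rose and 1 fell in gcn5 null. SAN1, a ligase for misfolded nuclear proteins, fell by 0.55 (SE 0.07, adjusted p = 0.000131) and was also lower at 0.68 and 0.95, by -0.37 and -0.41. UBR2, the ligase that marks Rpn4p for degradation, rose in every strain, by 0.60 at 0.32 (SE 0.09, adjusted p = 0.00591), 0.42 at 0.68, 0.77 at 0.95 and 0.46 in gcn5 null. It was higher at 0.95 than in gcn5 null by 0.31 (adjusted p = 0.0231), in the opposite direction to RPN4. In that comparison 4 of the 10 genes were lower, UBR1, MUB1, UFD2 and RSP5, and UBR2 was the 1 higher (13.6% and 19.5% of all genes). MUB1, the partner of UBR2, was at -0.34 (adjusted p = 0.0451). Of 4 regulators of RPN4, YAP1, a factor of the oxidative stress response, rose in gcn5 null by 0.60 (adjusted p = 0.0388; 0.22 with the covariate, adjusted p = 0.277), and PDR3, a factor of drug resistance, fell by 0.76 (adjusted p = 0.00099). With the covariate the regulator that rose was PDR1 instead, at 0.32. YAP1 and PDR3 were called at 0.95 against gcn5 null in the opposite directions, YAP1 at -0.63 and PDR3 at 0.51. All adjusted p-values are limma's over the 5449 genes.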

How the data were processed

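The deposited values are log2 signals. The authors made them from the arrays by RMA in Bioconductor's affy package, with background correction, quantile normalization and a summary per probe set; versions were not given in the sources used here. Genes were assigned to probe sets (10928, of which 5498 name an S. cerevisiae gene) from the platform annotation, keeping the brightest for each of 5449 genes, and positions are of assembly R64. limma 3.58.1 in R 4.3.3 was fitted to all 15 arrays with a mean per strain, with Benjamini-Hochberg adjustment over 5449 genes and a call at 0.05; the fit was also tested on simulated data. The 5' minus 3' signal is the mean over ACT1, EAF5, SPT15, URA3 and TDH1, whose control probe sets exceeded background on all arrays. Precision was limited by the number of arrays, with a median half-width of the 95% interval of 0.27 for all genes and 0.34 for members. Members and gene lists were chosen with earlier results of these data known. Values on every array are given for RPN4, PUP2 and the 3 called members with the largest difference in each comparison (the 3 smallest p where 0 were called); up to 3 called genes are named per further list; other genes given values (RPN3, UMP1, ECM29 and PUP3 among them) were chosen after their values were seen. Alternatives covered normalization, dim genes, variance moderation, probe sets, the arrays in the fit, a replicate block, single arrays left out and the covariate. Plots used matplotlib 3.10.9. No sequence is shown.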

Additional observations from a re-analysis of the deposited data

Results flagged for a closer look

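The tests of strength 0.95 against gcn5 null drew attention to 2 members whose effects differed between these strains. In the same comparison 13.6% of all genes were lower and 19.5% higher at 0.95, so such a difference was not particular to the proteasome genes. RPN4 was lower at 0.95 than in gcn5 null, with a log2 difference of -0.29 (adjusted p = 0.0113 by limma, 3 of 3 arrays below all null arrays), and RPT5 was lower with a difference of -0.42 (adjusted p = 0.025, 3 of 3 arrays below all null arrays). The call of RPT5 did not hold without 0.95 replicates 1 or 2 or null replicates 1 or 2, where its adjusted p reached 0.102.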

How the results depend on the processing

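For the 16 combinations of gene and comparison fixed by the rule on named genes, the direction held in all 368 values under alternatives: 322 kept their side of the threshold, 45 no longer passed and 1 newly passed. Over all members and comparisons, 0 of 32 called differences changed sign under any alternative, but 74 of 213 that were not called did, 45 of them with the covariate. Called differences were picked in the same data for lying far from 0, so their kept sign is no independent support. Replicate numbers did not pair the samples, as 5 of 15 arrays correlated best with their own number and the mean correlation was -0.07 for equal and 0.04 for other numbers. With the replicate number as a block, 15 members rose in gcn5 null, 1 at 0.32, 3 at 0.68 and 2 at 0.95, 4 had an upward slope, and at 0.95 against gcn5 null 0 were higher and 3 lower. The shares of all genes higher under the block were 17%, 1.17%, 4.0%, 6.18% and 7.23% in the same order, and 12.7% were lower at 0.95 against gcn5 null. With only the arrays compared in the fit the counts of higher members were 32 in gcn5 null, 0 at 0.32, 0 at 0.68, 7 at 0.95, 2 for the slope and 1 at 0.95 against gcn5 null, where 7 were lower. The shares of all genes in that fit were 26%, 0.0551%, 0.0184%, 10.3%, 5.58% and 24.3% higher, and 18.2% lower. The count of members lower at 0.95 against gcn5 null was 6 with median centring, 5 with quantile normalization over S. cerevisiae probe sets and 6 with the 5' minus 3' covariate, against 17.9%, 16.8% and 19.4% of all genes. The covariate gave 2 members at 0.32 and 2 for the slope. Leaving out 1 array at a time gave 8 to 26 members higher in gcn5 null, 1 to 10 at 0.68, 1 to 3 at 0.95, 1 to 9 for the slope, 1 to 4 lower at 0.95 against gcn5 null and 0 to 1 higher at 0.95 against 0.32. In the same order, the shares of all genes moved too, over 12.9% to 20.5%, 0.716% to 12.8% and 4.0% to 9.89%. For the last 3 comparisons they ran over 4.07% to 11.6%, 9.76% to 15.5% and 0.184% to 2.22%. The cause of these shifts was not tested.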
